A study of Homo sapiens with 28 samples.

Results

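Cadherins and protocadherins were followed through silencing of EWS-FLI1 or CHD4 in SK-N-MC, an Ewing sarcoma line that carries the EWSR1-FLI1 fusion. Members were all genes of the deposited table whose symbol is CDH followed by a number or PCDH followed by letters or digits, which gave 95 of 35488 genes. A mean of at least 10 normalised counts over all libraries was reached by 86 of the 95, among 21025 genes in all, and these were tested. Of the 86, CDH1 and CDH16 reached that mean only through 1 library, and CDH13 and PCDHAC2 only with the shFLI1 48 h group, so their part in the counts below supports nothing. By class they were 5 of 5 type I classical cadherins, 10 of 13 type II cadherins, 4 of 5 other cadherins, 12 of 14 single (non-clustered) protocadherins, 15 of 16 genes of the protocadherin alpha cluster, 18 of 18 of the beta cluster and 22 of 24 of the gamma cluster. The 9 members below that mean were CDH9, CDH17, CDH19, CDH22, PCDH12 and the pseudogenes PCDHA14, PCDH8P1, PCDHGB8P and PCDHGB9P.

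Cadherins are calcium-dependent adhesion proteins whose extracellular repeats bind cadherins of neighbouring cells. Classical cadherins, of type I and type II, are tied to the actin cytoskeleton through catenins, whereas protocadherins carry other cytoplasmic domains and are best known from neurons. The alpha, beta and gamma protocadherins lie in tandem on 1 chromosome. Each alpha or gamma gene joins its own variable exon to constant exons shared by its cluster, each beta gene has a single coding exon, and the choice among their promoters involves CTCF and cohesin.

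All cells carried a doxycycline-inducible short hairpin RNA and all, controls included, received doxycycline at 100 ng/ml. The 4 hairpins were shScramble (control), shFLI1 (which lowers the EWSR1-FLI1 fusion transcript and any FLI1), shCHD4#1 and shCHD4#2 (both against CHD4, the ATPase of the NuRD chromatin remodelling complex). RNA was taken after 24 or 48 h, with 5 shScramble and 3 libraries of each other hairpin at each time, which the labels call biological replicates. One line was used and no wild-type cells without hairpin were analysed here. FLI1 was lower with shFLI1 by a log2 difference of -1.16 at 24 h and -1.17 at 48 h, and CHD4 was lower with shCHD4#1 (-1.95 and -1.86) and shCHD4#2 (-1.91 and -2.07), each in 3 of 3 libraries. The genotype label of the 48 h shScramble libraries reads CHD4 knockdown, but their CHD4 level lay between 9343 and 13100 normalised counts, against 2722 to 3482 with the hairpins at that time. The 7 Ewing sarcoma markers looked for, CD99 and NKX2-2 among them, were in the table, with a sum of 41614 to 59090 in the 48 h shScramble libraries.

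The way reads were counted sets how single alpha and gamma genes can be read. Where a gene lies inside another on the same strand, the inner gene exceeded the outer in any library in 7 of 5390 pairs (0.130%), against 1081 of 4306 pairs on opposite strands (25.1%). In 28 of 28 libraries the 15 tested alpha genes never rose from PCDHA1 to PCDHAC2, and the 22 tested gamma genes never rose from PCDHGA1 to PCDHGC5. The counting settings are not known here, but in this order the value of PCDHA1 or PCDHGA1 can be read as the total of its cluster, and that of each following gene as the reads downstream of its start. Results for these genes are therefore given for the stretch each gene adds, its reads less those of the next gene downstream. The last stretches, named PCDHAC2 and PCDHGC5, hold the constant exons. Of the stretches, 6 alpha and 9 gamma ones reached the mean of 10. PCDHAC2 and PCDHGA2 did so only with the shFLI1 48 h group, so their part in the counts of stretches supports nothing.

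The promoters of the 3 clusters are shown here because the clusters moved differently under the hairpins. RefSeq promoters (GRCh38.p14, 250 bases before to 50 after a start, both strands searched) were found for 69 of the 95 members, with 89 starts. The letters GTGGCGCT stood in 13 of 13 beta promoters, in 0 of the other members' promoters, and in 1.15% of 35116 promoters of all genes. ATGTCGCT stood in 9 of 13 alpha promoters and in 0.234% of all. GCCGCTGT stood in 13 of 25 gamma promoters, in that of CDH2 and in 1.63% of all. These 3 motifs overlap in their letters, and a match is a description of sequence, not of binding. How their letters were chosen is not given here, so the high shares within clusters support nothing further. GGAAGGAA was searched too, and stood in 8 of 89 member promoters (8.99%) and in 3.67% of all. The stretches below read 5′ to 3′ on the plus strand of chromosome 5, with the motif in capitals. The first 5 are beta genes that were lower with shCHD4#2, PCDHB3 is a beta gene whose change with shCHD4#2 did not pass the test, the next 4 are alpha genes whose own stretch was lower with shCHD4#2, and the last 4 are gamma genes.
PCDHB7 (chr5:141172560-141172603): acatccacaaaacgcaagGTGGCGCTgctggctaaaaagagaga
PCDHB16 (chr5:141182304-141182347): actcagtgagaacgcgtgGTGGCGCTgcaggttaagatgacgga
PCDHB5 (chr5:141135173-141135216): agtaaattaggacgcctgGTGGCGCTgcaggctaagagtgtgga
PCDHB2 (chr5:141094538-141094581): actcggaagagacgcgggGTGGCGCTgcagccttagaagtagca
PCDHB9 (chr5:141187068-141187111): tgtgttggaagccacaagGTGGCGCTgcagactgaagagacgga
PCDHB3 (chr5:141100387-141100430): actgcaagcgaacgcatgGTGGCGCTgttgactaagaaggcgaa
PCDHA4 (chr5:140806973-140807016): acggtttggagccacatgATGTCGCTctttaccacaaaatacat
PCDHA5 (chr5:140821536-140821579): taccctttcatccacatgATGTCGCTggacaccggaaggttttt
PCDHA6 (chr5:140827891-140827934): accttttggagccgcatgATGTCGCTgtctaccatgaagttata
PCDHA10 (chr5:140855835-140855878): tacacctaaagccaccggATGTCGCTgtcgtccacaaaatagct
PCDHGA1 (chr5:141330399-141330442): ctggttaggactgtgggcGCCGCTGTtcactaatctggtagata
PCDHGB1 (chr5:141350021-141350064): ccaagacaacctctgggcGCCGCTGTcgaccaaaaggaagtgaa
PCDHGA10 (chr5:141412927-141412970): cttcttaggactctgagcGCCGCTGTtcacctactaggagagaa
PCDHGC3 (chr5:141475876-141475919): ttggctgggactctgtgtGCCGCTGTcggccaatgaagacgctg
Beta promoters that hold the same 8 letters thus include genes that were lower with shCHD4#2 and genes that did not pass the test.

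Replicate 3 of shFLI1 at 48 h stood apart from its group. In it 381 genes lay at least 8-fold above both other libraries of the group, against 0 to 8 genes in any other library. They included 4 members. CDH1 held 2.36, 20.7 and 783 normalised counts in the 3 libraries, CDH2 23.6, 23.0 and 235, CDH16 0, 0 and 314, and CDH17 0, 0 and 119. FAT1, a giant cadherin, held 1.18, 0 and 1831, and the kidney lineage factor PAX2 held 2.36, 0 and 51.9. Of 4 epithelial markers in the table, EPCAM was 43.6 in that library against 5.91 and 4.60, KRT14 was at 0 and KRT19 at 6.23. What sets this library apart was not tested, and results that rest on it are given with and without it.

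Libraries also came in 2 kinds. In 12 libraries, replicates 1 and 2 of every hairpin other than shFLI1, processed pseudogenes took 0.313 to 0.388% of the reads, and in the other 16 they took 0.223 to 0.283%. All shFLI1 libraries are of the second kind. Library totals ranged from 46102707 to 64775441 recovered reads.

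After silencing of EWS-FLI1, members rose more often than they fell. At 24 h 41 of 86 members were higher and 5 lower than in shScramble, where 24.2% of all tested genes were higher and 22.5% lower. At 48 h 62 were higher and 4 lower, against 32.2% and 31.7% of all tested genes. The median log2 difference of the members was 0.55 at 24 h and 1.21 at 48 h, and that of all tested genes was near 0 (0.0038 and 0.0090). Alpha and gamma genes share reads, so these counts and medians of the members take in the same reads more than once. The medians are therefore no measure of the family as a whole. The 49 members outside these clusters are also given: 17 were higher and 5 lower at 24 h, and 31 higher and 4 lower at 48 h. Without the library that stood apart, 57 of 86 were higher and 4 lower at 48 h, against 29.5% and 29.4% of all tested genes. At 24 h, 3 were lower without shFLI1 replicate 3. In bulk RNA, fewer cells with a transcript and less of it per cell cannot be told apart.

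Markers moved with the same libraries. The Ewing markers summed to 13039 to 13415 with shFLI1 at 48 h, below the shScramble range, and 7 of 7 were lower. The fibroblast markers PDGFRA, LUM, DCN and COL1A2 summed to 303 to 478 against 9.33 to 47.4 in shScramble, and 4 of 4 were higher. None of the 4 was at 0 in a shFLI1 library. At 24 h they summed to 171 to 233 against 13.2 to 39.7, and 3 of 4 were higher. Of 5 haematopoietic markers 4 were in the table and 2 tested, of which 1 was higher at each time. In the 24 h libraries their sum was 344 to 386 (shScramble 73.2 to 121), and in those of 48 h 197 to 279 (shScramble 103 to 119), with PTPRC at 124 to 220 and CD3E at 0 in 2 of 3 shFLI1 libraries at 48 h. The 4 epithelial markers summed to 131 to 161 in the 24 h libraries (shScramble 29.7 to 42.1) and 96.6 to 167 in those of 48 h (shScramble 24.3 to 44.8), with 1 of the 2 tested higher at each time and 1 lower at 48 h. The 3 endothelial ones summed to 22.4 to 29.9 against 6.53 to 14.3 at 48 h. The part of these markers in the members' results was not tested.

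**Figure D1:**
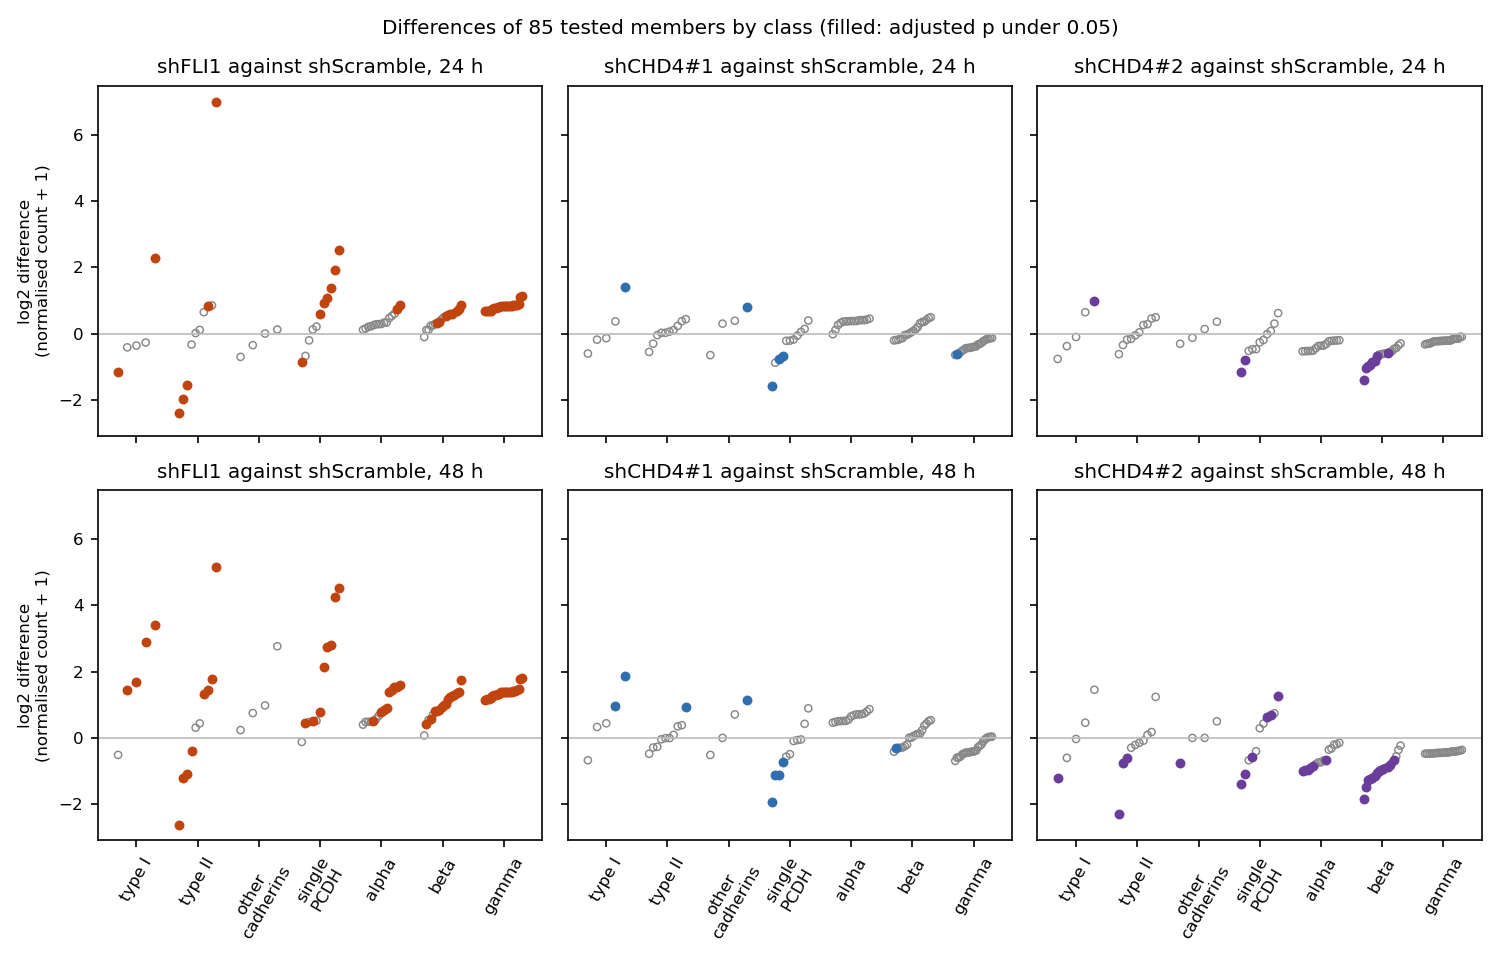
Log2 difference from shScramble of 85 tested members (points) by class, for each hairpin and time. With shFLI1 the points of the gamma cluster all lie above 0 at both times, and with shCHD4#2 those of the beta cluster all lie below 0.

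Among the type I cadherins, CDH3 (P-cadherin, of epithelia) rose with shFLI1 at both times. It held 208, 280, 160, 160 and 152 normalised counts in the 24 h shScramble libraries and 832, 967 and 924 with shFLI1 (log2 2.27, SE 0.19, limma adjusted p = 3.58e-07). The 48 h libraries held 147 to 296 with shScramble and 1636, 1635 and 1292 with shFLI1 (2.89, SE 0.24, adjusted p = 1.16e-07). The groups did not overlap at either time.

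CDH4 (R-cadherin, of retina and brain) held 896 to 2578 in the 24 h controls. With shFLI1 at 24 h it held 734, 635 and 577 (log2 -1.15, SE 0.42, adjusted p = 0.037). That call was lost without shScramble replicate 1 or 2 or any 1 of the shFLI1 libraries (adjusted p 0.0602 to 0.111), and at 48 h the difference was -0.51 (adjusted p = 0.289). CDH15 (M-cadherin, of muscle) rose at 48 h, from 9.81 to 25.2 in shScramble to 47.2, 56.3 and 40.5 (1.46, SE 0.30, adjusted p = 0.000606), and at 24 h it was not called (-0.27, adjusted p = 0.607).

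CDH1 (E-cadherin) and CDH2 (N-cadherin), the pair by which epithelial and mesenchymal states are usually told apart, were both low in this line. CDH1 lay between 1.03 and 6.54 in the 48 h shScramble libraries and CDH2 between 10.2 and 21.5. The calls of both with shFLI1 at 48 h rested on the library that stood apart. CDH1 passed the filter on low values only through that library, with a mean of 4.65 over the other libraries, so its call is no result. CDH2 was 3.25-fold higher with it (log2 SE 0.58, adjusted p = 0.0194), and its log2 difference was 0.61 (adjusted p = 0.122) without it. At 24 h CDH2 was not called (-0.42, adjusted p = 0.206).

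Of the 10 type II cadherins 2 were higher and 3 lower at 24 h, and 4 of each at 48 h, near the shares of all tested genes given above. CDH10 (chr5:24487100-24644978, minus strand), a cadherin of the nervous system, had the largest rise of any member at each time. The 24 h shScramble libraries held 7.41, 6.48, 18.2, 10.5 and 16.9, and the shFLI1 libraries 905, 1643 and 2382 (log2 6.99, SE 0.41, adjusted p = 1.4e-08). At 48 h they held 6.53 to 12.4 and 331, 266 and 550 (5.17, SE 0.29, adjusted p = 2.61e-09). Every shFLI1 library lay more than an order of magnitude above every control library. The rise was smaller at 48 h than at 24 h by 1.82 on the log2 scale (-1.82, SE 0.52, adjusted p = 0.0152), a call lost without shFLI1 24 h replicate 3 (0.064) or 48 h replicate 2 (0.0571).

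CDH24 rose from 925 to 1180 in the 24 h controls to 1873, 2090 and 1802 (0.83, SE 0.12, adjusted p = 6.48e-05). By 48 h the level went from 942 to 1370 to 4267, 4504 and 3012 (1.76, SE 0.16, adjusted p = 2.77e-07), a larger rise than at 24 h by 0.93 (adjusted p = 0.00219). CDH18 was higher at 48 h, with 60.2, 62.1 and 66.5 against 17.7 to 38.1 (1.44, SE 0.33, adjusted p = 0.00154). A transcript inside CDH18 takes 25.1% of its reads, so its own share is smaller. CDH20 was higher at 48 h by 1.32 (adjusted p = 0.0347), with 927, 736 and 611 against 193 to 662, groups that overlapped. That call was lost without shScramble replicate 2, 3 or 4 or any 1 of the shFLI1 libraries (0.0519 to 0.113).

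CDH11 (OB-cadherin, of osteoblasts and mesenchyme; chr16:64943753-65126112, minus strand) fell with shFLI1. It held 30331, 29877, 22311, 19936 and 22069 in the 24 h shScramble libraries and 6937, 6763 and 5266 with shFLI1 (log2 -1.97, SE 0.19, adjusted p = 1.3e-06). The 48 h controls held 19909 to 27945 and the shFLI1 libraries 10477, 12957 and 7310 (-1.22, SE 0.19, adjusted p = 6.32e-05). The groups did not overlap, and the difference between the times did not pass the test (0.74, SE 0.28, adjusted p = 0.0762).

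CDH12, a cadherin of the brain, fell from 1045 to 2447 in the 24 h controls to 328, 373 and 202 (-2.39, SE 0.37, adjusted p = 9.97e-05). Its 48 h values fell from 1098 to 1947 to 241, 231 and 236 (-2.61, SE 0.24, adjusted p = 2.84e-07). CDH8 fell from 805 to 1512 to 353, 388 and 329 (-1.56, adjusted p = 7.75e-05), and at 48 h from 888 to 1222 to 477, 493 and 456 (-1.09, adjusted p = 0.000153). CDH10 and CDH12, both on the short arm of chromosome 5, went opposite ways in the same libraries. CDH7 was slightly lower at 48 h (-0.40, adjusted p = 0.00939, and 0.055 without shFLI1 replicate 1). CDH5 (VE-cadherin, of endothelium) and CDH6 (K-cadherin) passed at neither time, with 48 h differences of 0.31 (adjusted p = 0.405) and 0.44 (adjusted p = 0.23).

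None of the 4 other cadherins was called with shFLI1 at either time by limma, and 1, CDH26, had an unadjusted p under 0.05, at 48 h (0.75, adjusted p = 0.0614). CDH13 (T-cadherin, anchored by lipid) held 4.14, 4.47 and 4.42 against 4.82 to 11.3 at 24 h (-0.70, adjusted p = 0.132), and 18.9, 11.5 and 22.8 against 4.07 to 16.5 at 48 h (0.98, adjusted p = 0.0886). CDH23, of the hair-cell tip link, held 1098 to 2112 in the 24 h controls and 1300, 1364 and 1096 with shFLI1 (-0.35, adjusted p = 0.199). CDH16 was at 0 in every library of shScramble and shFLI1 except the one that stood apart.

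Among single protocadherins PCDH18 rose most at both times. PCDH18 (chr4:137518918-137532494, minus strand) held 363, 547, 392, 407 and 404 in the 24 h controls and 2126, 2599 and 2464 with shFLI1 (log2 2.51, SE 0.18, adjusted p = 6.61e-08). The 48 h libraries held 359 to 770 in the controls and 12753, 10469 and 7752 with shFLI1 (4.52, SE 0.23, adjusted p = 9.84e-10). Every shFLI1 library lay above every control library at both times. The rise grew by 2.01 (SE 0.30, adjusted p = 3.7e-05) between the times.

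PCDH10, a protocadherin of the brain, was at 16.9 to 25.9 in the 24 h controls and rose to 44.5, 77.1 and 55.3 (1.38, SE 0.27, adjusted p = 0.000822). Its 48 h values rose from 12.4 to 17.4 to 217, 271 and 442 (4.26, SE 0.36, adjusted p = 1.17e-07). The growth between the times, 2.88 (SE 0.45, adjusted p = 5.49e-05), was the largest of the 8 members whose shFLI1 difference changed with time. PCDH19, known from a form of epilepsy, held 134, 231 and 108 at 24 h against 90.8 to 112 (0.60, adjusted p = 0.0252, and 0.209 without shFLI1 replicate 2). Its 48 h values were 630, 572 and 442 against 69.8 to 108 (2.73, SE 0.20, adjusted p = 3.27e-08), a growth of 2.13 (adjusted p = 7.91e-06).

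PCDH7 rose from 1294 to 2377 to 5858, 6151 and 6038 at 24 h (1.90, SE 0.20, adjusted p = 3.61e-06). At 48 h it rose from 740 to 1911 to 8676, 8923 and 7718 (2.79, SE 0.35, adjusted p = 7.53e-06). PCDH1 rose at low counts, from 4.12 to 16.4 to 24.8, 34.5 and 73.7 at 48 h (2.14, adjusted p = 0.00097). At 24 h it differed by 1.08 (adjusted p = 0.0389), lost without shScramble replicate 2 or 4 or shFLI1 replicate 1 or 2 (0.0676 to 0.189). PCDH17 was higher at 24 h (0.92, SE 0.18, adjusted p = 0.000621) and at 48 h (0.46, adjusted p = 0.0292). The 48 h call was lost without shFLI1 replicate 1 or 2 or shScramble replicate 4 or 5 (0.0629 to 0.103) and with the replicate block (0.29, adjusted p = 0.13). PCDH20 was higher at 48 h (0.79, SE 0.19, adjusted p = 0.0026). PCDH8 (a protocadherin of synapses) was lower at 24 h (-0.87, adjusted p = 0.0223) and not called at 48 h (0.48, adjusted p = 0.0841). Its call at 24 h and the change between times (1.35, adjusted p = 0.0142) were lost without shFLI1 24 h replicate 3 (0.159 and 0.0669), the latter also without 48 h replicate 2 (0.0524). PCDH11X, the X-linked member with 2374 to 7100 counts in the 24 h controls, differed by 0.12 and -0.12 (adjusted p = 0.787 and 0.695).

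**Figure D2:**
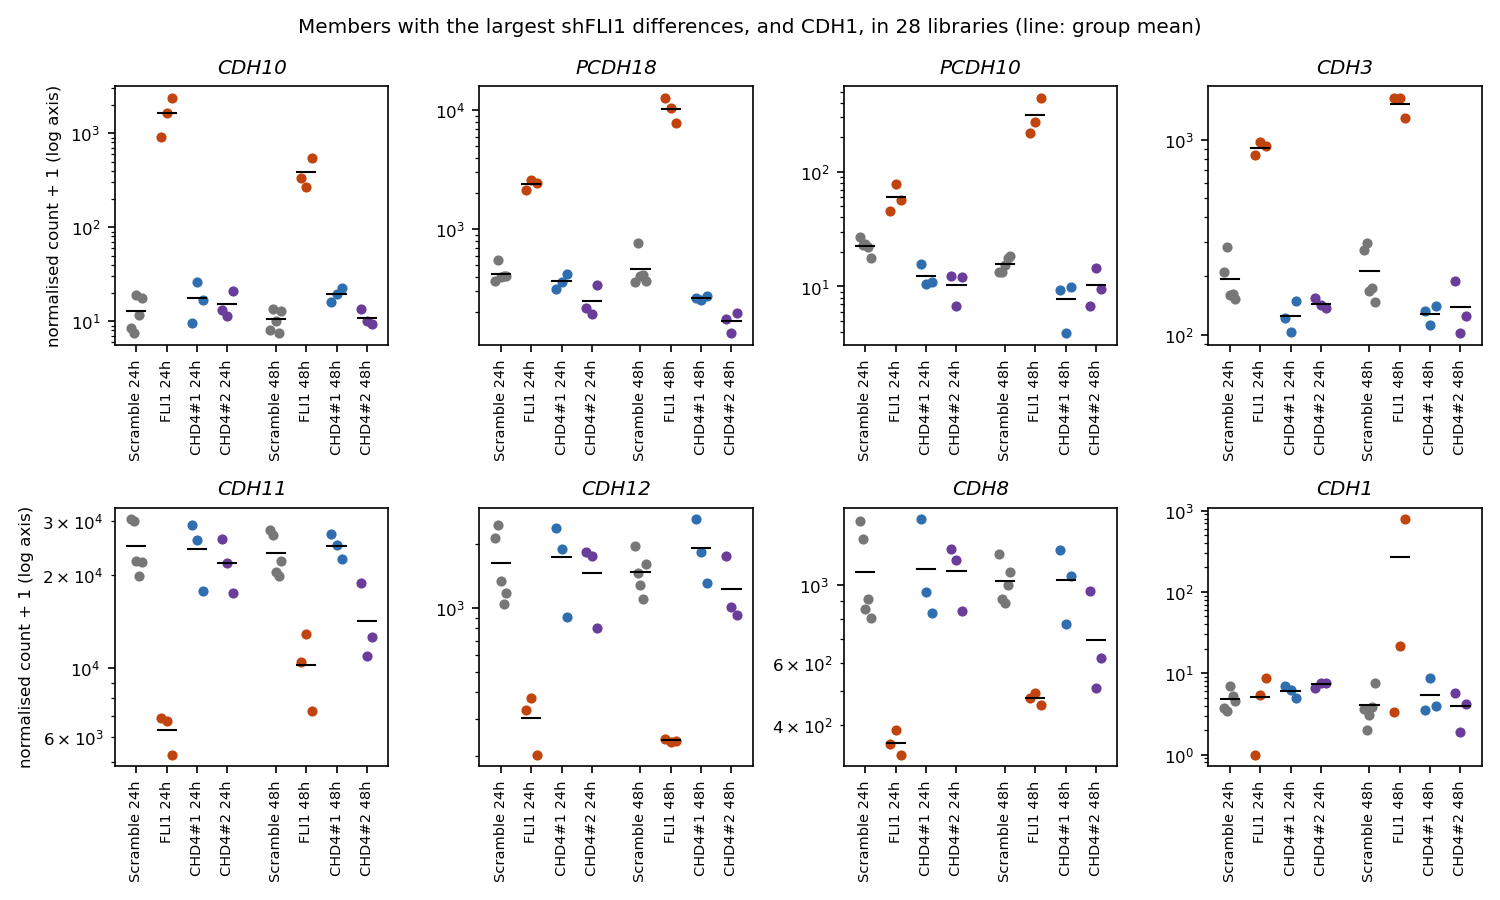
Normalised counts (log axis) of 8 members in each shScramble and shFLI1 library at 24 and 48 h. CDH10, PCDH18, PCDH10 and CDH3 lie above all control libraries at both times, CDH11, CDH12 and CDH8 below them, and CDH1 is high in 1 library of shFLI1 at 48 h.

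Beta cluster genes rose with shFLI1, 8 of 18 at 24 h and 15 of 18 at 48 h, and 0 fell. Their summed level was 5213 to 6961 in the 48 h shScramble libraries and 7240 to 9443 with shFLI1. PCDHB13 rose most at 48 h, from 46.7 to 79.4 to 200, 261 and 161 (1.75, SE 0.23, adjusted p = 1.31e-05), after 0.87 at 24 h (adjusted p = 0.00496). PCDHB9 followed, from 130 to 212 to 391, 407 and 340 (1.17, SE 0.15, adjusted p = 1.22e-05). PCDHB5, the highest of all members per kilobase of gene span (introns included), held 2423 to 3054 and 2943, 3085 and 2254 (0.07, SE 0.11, adjusted p = 0.566). PCDHB4 (0.54, adjusted p = 0.0604) and the pseudogene PCDHB17P (0.70, adjusted p = 0.103) were the other two not called. Beta genes are close copies of each other, and how reads shared between copies were assigned is not given in the sources used here.

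In the gamma cluster 22 of 22 genes were higher at both times, but by stretches 3 of 9 were higher at 24 h and 8 of 9 at 48 h, where 24.1% and 32.1% of all tested features were higher. The last stretch, PCDHGC5 with the constant exons, rose from 44.3 to 65.8 to 131, 127 and 88.4 at 24 h (1.12, SE 0.21, adjusted p = 0.000475). At 48 h it rose from 33.8 to 61.8 to 201, 182 and 114 (1.80, SE 0.27, adjusted p = 4.12e-05). PCDHGC3 rose at 48 h by 0.94 (adjusted p = 0.00509) and PCDHGA10 by 1.06 (adjusted p = 0.0054). These calls held without any 1 library. At 48 h the stretch of PCDHGA2 (1.37) was also among the 8. It passed the filter on low values only with the shFLI1 48 h group, so its call is no result. PCDHGA1 (0.82), PCDHGA4 (0.82), PCDHGA6 (0.81) and PCDHGB2 (0.75) were lost without shFLI1 replicate 1 or 2, and all but PCDHGA6 without shScramble replicate 4 or 5 (0.0546 to 0.15). Without shScramble replicate 3 PCDHGA1 and PCDHGB2 were lost too. PCDHGB1 was not called (0.52, adjusted p = 0.0887). At 24 h the calls of PCDHGC3 (0.56) and PCDHGA1 (0.78) were lost without shFLI1 replicate 1 or 2, or shScramble replicate 3 or 4, and that of PCDHGA1 without any 1 of the shScramble libraries (0.0503 to 0.15).

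In the alpha cluster 2 of 15 genes were higher at 24 h and 9 at 48 h. By stretches 2 of 6 were higher at each time, PCDHAC2 with either PCDHA1 or PCDHA4, where 24.1% and 32.1% of all features were. The last stretch, PCDHAC2, reached the mean of 10 only with the shFLI1 48 h group, so its calls are no result. At 24 h it held 7.22 to 10.2 in shScramble and 17.6, 16.8 and 14.4 with shFLI1 (0.86). The 48 h values were 4.67 to 12.5 in shScramble and 21.3, 29.9 and 21.8 with shFLI1 (1.59). PCDHA1 at 24 h (0.64, adjusted p = 0.0464) and PCDHA4 at 48 h (0.62, adjusted p = 0.0458) passed, but each call was lost under 6 of the 8 left-out libraries, up to 0.119 without shFLI1 replicate 1 and 0.184 without shFLI1 replicate 2. PCDHA5, PCDHA6 and PCDHA10 were not called at 48 h (0.11, 0.06 and 0.02). The alpha total was low throughout, 129 to 228 in the 48 h controls and 207 to 285 with shFLI1, and these ranges overlapped.

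After silencing of CHD4 with shCHD4#1, few members passed the test. At 24 h 2 of 86 were higher and 4 lower, where 5.21% of all tested genes were higher and 6.14% lower. At 48 h 4 were higher and 5 lower, against 12.9% and 15.5%. Leaving out 1 library gave 1 to 2 higher and 1 to 5 lower at 24 h, fewest without shCHD4#1 replicate 2, and 1 to 7 higher and 2 to 6 lower at 48 h, with 1 higher without shScramble replicate 3 and 7 without shScramble replicate 1. Same-numbered shScramble and CHD4 libraries deviated together. They are also of the same library kind, so pairing by number and library kind cannot be told apart. With the replicate number as a block, 20 members were lower at 24 h and 20 at 48 h (7.27% and 12.6% of all genes), 15 and 13 of them gamma genes that share reads.

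With shCHD4#2 more members fell, the beta cluster most. At 24 h 1 of 86 was higher and 10 lower, where 4.05% of all tested genes were higher and 7.01% lower. At 48 h 3 were higher and 27 lower, against 17.5% and 20.3%. With the replicate block 29 members were lower at 24 h and 54 at 48 h (8.6% and 18.8% of all genes), of which 5 and 20 were gamma genes. Leaving out shCHD4#2 replicate 2 at 48 h left 16 lower, the fewest of any left-out library. The Ewing markers summed to 23636 to 32886 with shCHD4#2 at 48 h, below the 41614 of the lowest control, and 7 of 7 were lower. FLI1 was also lower with shCHD4#2 at 48 h (-0.34, adjusted p = 0.0291), as was EWSR1 (-0.39, adjusted p = 0.00873), and neither was called with shCHD4#1 (-0.12 and -0.28, adjusted p = 0.47 and 0.058). The haematopoietic markers summed to 154 to 188 against 103 to 119. The part of these genes in the members' results was not tested.

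In the beta cluster 8 of 18 genes fell at 24 h and 13 at 48 h with shCHD4#2, and 0 rose. The cluster's sum was 5213 to 6961 in the 48 h shScramble libraries, 5135 to 5216 with shCHD4#1 and 2644 to 2956 with shCHD4#2, which lay below both. PCDHB5 (chr5:141135218-141138625) held 2557, 2715, 2685, 2396 and 2996 in the 24 h controls and 1323, 1234 and 1482 with shCHD4#2 (log2 -0.99, SE 0.10, adjusted p = 4.03e-05). At 48 h it held 2423 to 3054 and 1096, 1025 and 1148 (-1.26, SE 0.11, adjusted p = 1.74e-06). With shCHD4#1 it held 2168, 2290 and 2327 at 48 h (-0.20, adjusted p = 0.184).

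PCDHB16 fell from 227 to 301 to 110, 72.3 and 104 at 48 h (-1.49, SE 0.15, adjusted p = 4.85e-06), after -1.03 at 24 h. PCDHB7 had the largest fall, from 57.8 to 149 to 53.2, 16.3 and 15.8 (-1.85, SE 0.36, adjusted p = 0.00111), after -1.40 at 24 h (adjusted p = 0.00323). PCDHB11 fell by 0.94 at 24 h and by 1.22 at 48 h, and PCDHB2 by 0.84 and by 0.89. PCDHB9 fell by 0.67 at 24 h, a call lost without shCHD4#2 replicate 3 (adjusted p = 0.0644), and by 1.01 at 48 h. PCDHB3 and PCDHB4 were not called at 48 h (-0.37 and -0.23, adjusted p = 0.182 and 0.472). With shCHD4#1 only PCDHB2 passed, at 48 h (-0.31, adjusted p = 0.0288). That call was lost without any 1 of the shCHD4#1 libraries or without shScramble replicate 1 or 3 (0.0508 to 0.12).

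Of the alpha stretches, 4 of 6 were lower with shCHD4#2 at 48 h, where 20.4% of all tested features were lower, and 0 with shCHD4#1. PCDHA4 differed by -1.10 (SE 0.25, adjusted p = 0.00385), PCDHA10 by -1.04 (adjusted p = 0.0144), PCDHA5 by -0.94 (adjusted p = 0.00572) and PCDHA6 by -0.94 (adjusted p = 0.0215). The calls of PCDHA10 and PCDHA6 were lost without shCHD4#2 replicate 2 or 3 (0.0757 to 0.0819). The last stretch, PCDHAC2, was not called (-0.15, adjusted p = 0.77). Of the gamma stretches 2 of 9 were lower with shCHD4#2, PCDHGB1 (-0.94, adjusted p = 0.00924, and 0.0636 without replicate 2) and PCDHGA10 (-0.83, adjusted p = 0.0352). The latter was lost without shCHD4#2 replicate 2 or 3 or shScramble replicate 1, 2 or 3 (0.0576 to 0.128). With shCHD4#1 the stretch of PCDHGC3 was the 1 of 9 lower at 48 h (-0.84, SE 0.26, adjusted p = 0.0244), where 15.5% of all features were lower. It was lost without replicate 2 or 3 of the hairpin (0.104 and 0.0774). The constant-exon stretch PCDHGC5 was called with neither hairpin at 48 h (-0.59 and -0.38, adjusted p = 0.117 and 0.287).

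**Figure D3:**
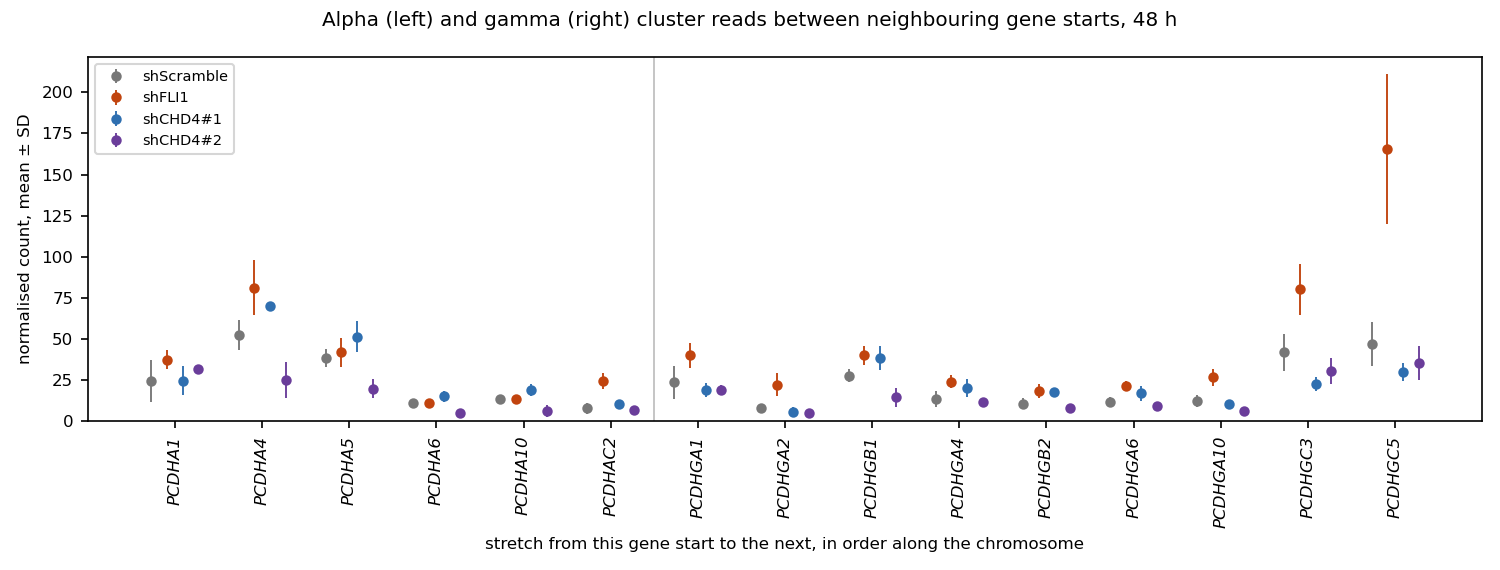
Normalised counts (mean ± SD) at 48 h for the tested stretches of the alpha and gamma clusters, by hairpin, with shScramble shown as its own points. The last gamma stretch, PCDHGC5, has the highest shFLI1 mean. The alpha stretches from PCDHA4 to PCDHA10 have lower means with shCHD4#2 than with shScramble.

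Among single protocadherins, PCDH20 (chr13:61409685-61415522, minus strand) had the largest fall with shCHD4#1. It held 955, 785, 851, 813 and 943 in the 24 h controls and 326, 250 and 302 (log2 -1.57, SE 0.13, adjusted p = 7.91e-06). At 48 h it held 758 to 1053 and 257, 184 and 227 (-1.93, SE 0.19, adjusted p = 1.38e-05), with no overlap. With shCHD4#2 it held 692, 440 and 612 at 48 h (-0.56, adjusted p = 0.0339). That call was lost without shScramble replicate 1 or 3 or shCHD4#2 replicate 2 or 3 (0.0516 to 0.206).

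PCDH17, on chromosome 13 as well, fell with shCHD4#1 from 944 to 1547 to 614, 510 and 464 at 48 h (-1.13, SE 0.17, adjusted p = 0.000261). At 24 h it differed by -0.67 (adjusted p = 0.0233), lost without replicate 2 or 3 of the hairpin (0.121 and 0.0806). With shCHD4#2 it held 1245, 2018 and 1492 at 48 h (0.43, adjusted p = 0.0589). PCDH18 was lower at 48 h with both hairpins, with 263, 253 and 276 (-0.74, adjusted p = 0.0263) and 175, 133 and 198 (-1.40, SE 0.23, adjusted p = 0.000305) against 359 to 770. Without any 1 of the shCHD4#1 libraries its call with that hairpin was lost (0.0578 to 0.0917).

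PCDH7 was lower with shCHD4#1 at 24 h, with 1293, 789 and 819 against 1294 to 2377 (-0.77, adjusted p = 0.0251), lost without replicate 2 or 3 of the hairpin (0.156 and 0.0994). At 48 h it was not called (-0.49, adjusted p = 0.325).

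PCDH10 was lower with shCHD4#1 at 48 h (-1.13, adjusted p = 0.0291), a call lost with the replicate block (-0.98, adjusted p = 0.114) and without shScramble replicate 4 or 5 or shCHD4#1 replicate 2 (0.0574 to 0.188). It was lower with shCHD4#2 at 24 h (-1.17, adjusted p = 0.0131), lost without replicate 2 of the hairpin (0.101). With shCHD4#2 at 48 h PCDH8 was lower (-1.08, adjusted p = 0.0022), and PCDH1 (1.25), PCDH19 (0.70) and PCDH9 (0.64) were higher (adjusted p = 0.0456, 0.0138 and 0.0205). The calls of PCDH19 and PCDH9 were lost without replicate 2 of the hairpin (0.0927 and 0.156), and that of PCDH9 without replicate 3 too (0.068). That of PCDH1 was lost without shScramble replicate 2, 3 or 4 or any 1 of the shCHD4#2 libraries (0.0624 to 0.152).

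CDH23 went up with shCHD4#1. It held 1182 to 1823 in the 48 h controls and 3527, 3376 and 3219 with that hairpin (1.16, SE 0.19, adjusted p = 0.000493), with no overlap. At 24 h it held 3131, 3409 and 2036 against 1098 to 2112 (0.81, adjusted p = 0.0254), lost without replicate 1 or 2 of the hairpin (0.0943 and 0.161). With shCHD4#2 it was lower at 48 h, with 1306, 685 and 816 (-0.75, adjusted p = 0.00649, and 0.0552 without replicate 2).

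CDH5 fell with shCHD4#2 at 48 h, from 26.8, 82.5, 67.2, 60.7 and 42.5 to 7.61, 12.6 and 9.48 (log2 -2.31, SE 0.31, adjusted p = 7.11e-05). With shCHD4#1 it held 41.5, 58.4 and 53.4 (-0.04, adjusted p = 0.939). The sum of 3 endothelial markers in the table, PECAM1, VWF and TEK, was 20.8 to 30.5 with shCHD4#2, above the 6.53 to 14.3 of the controls, and TEK was at 0 in 2 of the 3 shCHD4#2 libraries.

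CDH2 was higher with shCHD4#1 at 24 h, with 53.8, 55.3 and 56.6 against 13.2 to 32.7 (1.39, SE 0.26, adjusted p = 0.00342). Its 48 h values were 49.8, 61.3 and 61.3 against 10.2 to 21.5 (1.87, SE 0.58, adjusted p = 0.027). The 48 h fit shares its spread with the shFLI1 library that stood apart, and leaving out shScramble replicate 3 or any 1 of the shCHD4#1 libraries lost that call (0.0541 to 0.0902). With shCHD4#2 it held 41.0, 41.0 and 42.9 at 24 h (1.00, adjusted p = 0.0241, and 0.051 to 0.0912 without shScramble replicate 3 or any 1 of the shCHD4#2 libraries). Its 48 h values were 38.0, 35.2 and 57.9 (1.45, adjusted p = 0.0628). No CHD4 library overlapped the controls at either time. The epithelial markers summed to 208 to 309 with shCHD4#1 at 48 h and 24.3 to 44.8 in the controls, with CLDN4 at 146 to 189 and KRT14 at 0. Their part in the result was not tested.

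CDH11 was lower with shCHD4#2 at 48 h, with 18888, 10992 and 12650 against 19909 to 27945 (-0.76, SE 0.19, adjusted p = 0.0068, and 0.0549 without replicate 2). CDH4 (-1.21, adjusted p = 0.0315) and CDH8 (-0.60, adjusted p = 0.0229) were lower in the same libraries. The call of CDH8 was lost without replicate 2 or 3 of the hairpin (0.159 and 0.0853), and that of CDH4 without either of these or shScramble replicate 1 or 5 (0.0639 to 0.179). With shCHD4#1 CDH15 was higher at 48 h (0.97, adjusted p = 0.025), lost without shScramble replicate 3 or 5 or any 1 of the shCHD4#1 libraries (0.0509 to 0.0777). CDH10 was called too (0.92, adjusted p = 0.0296), at 14.9, 18.5 and 21.7, but not with the replicate block (0.89, adjusted p = 0.0816), nor without shScramble replicate 1, 3 or 4 or shCHD4#1 replicate 2 or 3 (0.0502 to 0.111). CDH3 was not called with either hairpin (-0.67 and -0.60 at 48 h, adjusted p = 0.0501 and 0.0628).

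**Figure D4:**
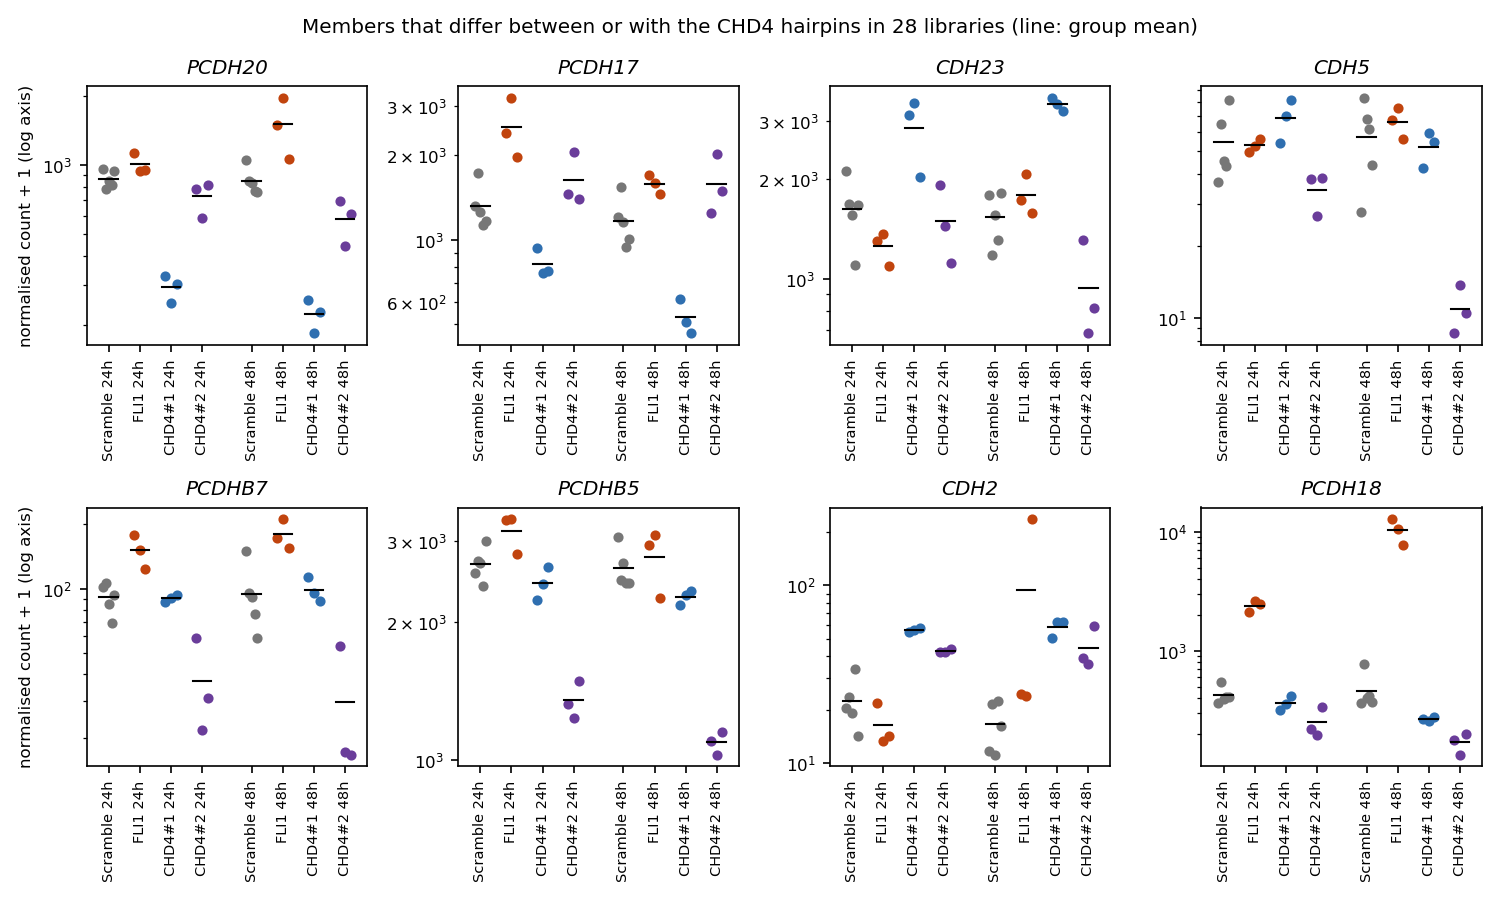
Normalised counts (log axis) of 8 members in each shScramble, shCHD4#1 and shCHD4#2 library at 24 and 48 h. PCDH20 and PCDH17 are low with shCHD4#1, CDH5, PCDHB7 and PCDHB5 with shCHD4#2, and CDH23 is high with shCHD4#1 and low with shCHD4#2 at 48 h.

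The CHD4 hairpins were then compared with each other. At 24 h 16 of 86 members were higher and 2 lower with shCHD4#1 than with shCHD4#2, where 5.62% of all tested genes were higher and 4% lower (9.62% in either direction). Without shCHD4#1 replicate 2 or shCHD4#2 replicate 3, 8 and 10 members were called in place of 18. At 48 h 32 were higher and 4 lower, against 19.2% and 18.6% (37.9% together). Of the beta genes 15 of 18 were higher at 48 h. By stretches 4 of 6 alpha and 2 of 9 gamma ones were higher, against 19.2% of all tested features. The gamma ones were PCDHGB1 (1.39, adjusted p = 0.00172) and PCDHGB2 (1.01, adjusted p = 0.0226), the latter lost without shCHD4#1 replicate 1 or 2 or shCHD4#2 replicate 3 (0.0577 to 0.0892). PCDHB7 differed by 1.98 (adjusted p = 0.00167), PCDHB16 by 1.19 (adjusted p = 0.000103) and PCDHB5 by 1.05 (adjusted p = 3.07e-05). CDH5 differed by 2.27 (adjusted p = 0.000254) and CDH23 by 1.90 (adjusted p = 2.42e-05), whereas PCDH17 (-1.56, adjusted p = 4.58e-05) and PCDH20 (-1.37, adjusted p = 0.000308) were lower with shCHD4#1. PCDHB9 was higher with shCHD4#1 by 1.06 (adjusted p = 0.000353). PCDH19 (-0.79) and PCDH9 (-0.69) were lower, calls lost without shCHD4#2 replicate 2, without shCHD4#1 replicate 2 for PCDH19, and without shCHD4#1 replicate 1 or shCHD4#2 replicate 3 for PCDH9 (0.0564 to 0.139).

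Against the mean of both CHD4 hairpins, 46 members were higher and 8 lower with shFLI1 at 24 h, where 28% of all tested genes were higher and 24.8% lower (52.9% together). At 48 h 72 were higher and 4 lower, against 32.9% and 32.8% (65.7% together). All tested alpha, beta and gamma genes were higher at 48 h, 15, 18 and 22 of them. The 4 lower were CDH7, CDH8, CDH11 and CDH12. At 24 h CDH2 (-1.61, adjusted p = 9.52e-05) and CDH6 (-0.61, adjusted p = 0.00658, and 0.0584 without shFLI1 replicate 3) were lower too. PCDH18 differed most, by 5.59 (SE 0.22, adjusted p = 1.17e-10), followed by PCDH10 with 5.16 (adjusted p = 1.26e-08) and CDH10 with 4.66 (adjusted p = 4.79e-09). By stretches 2 of 6 alpha and 7 of 9 gamma ones were higher, where 32.8% of all tested features were.

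Between the times, the signed shFLI1 difference was higher at 48 h than at 24 h for 7 of 86 members, PCDH8 with its change of sign among them, and lower for 1, CDH10, where 7.22% of all tested genes were higher and 9.44% lower (16.7% together). Of these 8, 5 were left without shFLI1 24 h replicate 3, and 13 were called without shScramble 48 h replicate 1. Besides those above, CDH15 changed by 1.73 (adjusted p = 0.0186, lost without shFLI1 24 h replicate 3 at 0.0652 or 48 h replicate 2 at 0.0534) and CDH2 by 2.12 (adjusted p = 0.0297), the latter 1.02 (adjusted p = 0.0949) without the library that stood apart. It was also lost without shFLI1 24 h replicate 2 or 3, shScramble 24 h replicate 4 or 48 h replicate 3 (0.053 to 0.0724). Without the library that stood apart 11 members had a higher difference at 48 h and 1 a lower one (6.74% and 7.96% of all genes). With shCHD4#2 1 member changed, CDH5 (-1.69, SE 0.41, adjusted p = 0.0448), where 0.295% of all genes were higher and 0.694% lower (0.989% together). That call was lost under 11 of the left-out libraries, up to an adjusted p of 0.164 without shCHD4#2 24 h replicate 1. With shCHD4#1 limma called 0 members, and 1 had an unadjusted p under 0.05 (0% of genes higher and 0.00476% lower). In shScramble itself limma called 0 members between 48 and 24 h and 0 had an unadjusted p under 0.05, whereas 485 of all 21025 genes did and 0% were called.

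Per kilobase of the whole gene, introns included, PCDHB5 was highest in the 24 h controls with 783 normalised counts. It was followed by PCDHB2 (310), PCDHB11 (157), PCDH20 (149), CDH11 (137) and CDH24 (103). With shFLI1 at 48 h PCDHB5 (810) and PCDH18 (760.5) led. With shCHD4#2 at 48 h PCDHB5 stood at 320 and PCDHB2 at 157. These spans include introns, so short single-exon genes are favoured and the order is no ranking of transcript levels.

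Of 23 catenins and other partners of cadherins at junctions, 21 were tested. With shFLI1 6 were higher and 5 lower at 24 h (24.2% and 22.5% of all tested genes), and 9 and 5 at 48 h (32.2% and 31.7%). VCL (vinculin, which links catenins to actin) rose from 3361 to 4941 to 19007, 18969 and 13549 at 48 h (2.09, SE 0.14, adjusted p = 1.69e-08), and NECTIN3, an adhesion partner, by 1.00 (adjusted p = 1.14e-06). PKP2 (plakophilin, of desmosomes) fell by 1.07 and LIMD1, a junction scaffold, by 0.72 at 48 h. With shCHD4#2 3 were higher and 10 lower at 48 h (17.5% and 20.3% of all genes), with shCHD4#1 3 and 6 (12.9% and 15.5%).

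Of 25 other genes of the cadherin superfamily 14 were tested, and 6 were higher and 4 lower with shFLI1 at 48 h, where 32.2% and 31.7% of all genes were. CLSTN2 (calsyntenin, of synapses) fell from 23559 to 36148 to 595, 712 and 639 (-5.40, SE 0.19, adjusted p = 6.12e-11). CDHR3, a cadherin-related receptor, fell from 1071 to 1499 to 451, 411 and 550.3 (-1.43, adjusted p = 3.03e-06). FAT3, a giant cadherin, rose from 3.57 to 15.5 to 182, 231 and 337 (4.77, SE 0.51, adjusted p = 1.59e-06). DCHS1, the ligand of FAT4, was higher by 1.52 with shFLI1 (adjusted p = 4.05e-07) and lower by the test with shCHD4#2 at 48 h (-0.81, adjusted p = 0.00056). With shCHD4#1 2 were higher and 1 lower at 48 h (12.9% and 15.5% of all genes), with shCHD4#2 1 and 4 (17.5% and 20.3%).

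Of 15 cadherin repressors and cleaving enzymes 13 were tested, and 9 were higher and 1 lower with shFLI1 at 48 h, where 32.2% and 31.7% of all genes were. SNAI2 (Slug, a repressor of CDH1) rose from 39.2 to 62.5 to 1310, 1559 and 887 (4.63, SE 0.25, adjusted p = 1.57e-09). TWIST1 (2.30-fold, adjusted p = 1.39e-05) and ZEB1 (log2 1.04), of the same kind, and NCSTN (log2 0.85), a gamma-secretase subunit, were also higher. CDH1 in the first pair of these libraries was 2.36 and 20.7. With shCHD4#2 2 were higher and 5 lower at 48 h (17.5% and 20.3% of all genes), and with shCHD4#1 1 of each (12.9% and 15.5%). SNAI2 was among those lower with shCHD4#2 (-0.82, adjusted p = 0.0171, and 0.0659 without replicate 3 of the hairpin).

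Of 18 regulators of the protocadherin clusters 18 were tested. With shCHD4#2 0 were higher and 9 lower at 48 h (17.5% and 20.3% of all genes), with shCHD4#1 0 and 5 (12.9% and 15.5%). RAD21 (a cohesin subunit) held 19760 to 25098 in the 48 h controls, 17002, 18649 and 18244 with shCHD4#1 and 8877, 6528 and 8018 with shCHD4#2 (-1.55, SE 0.10, adjusted p = 1.92e-07). STAG2, another cohesin subunit, differed by -0.93 with shCHD4#2 (adjusted p = 7.41e-06). CTCF differed by -0.39 with shCHD4#1 (adjusted p = 0.00159) and by -0.59 with shCHD4#2 (adjusted p = 3.78e-05). With shFLI1 4 were higher and 10 lower at 48 h (32.2% and 31.7%), PDS5B (-0.88) and PDS5A (-0.76), which regulate cohesin, among the latter. Whether these levels have a part in the cluster results was not tested.

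In the authors' deposited tables, which may test fold changes against a minimum, 29 members were higher and 2 lower with shFLI1 at 48 h at an adjusted p under 0.05. For shCHD4#2 the authors' deposited tables call 3 members lower at 24 h and 13 at 48 h, with 0 higher. For shCHD4#1 they call 1 lower at 24 h, and 1 higher and 2 lower at 48 h. The shares of all genes that the authors called are not given here, so these counts cannot be set against a background. PCDH18 has a log2 value of 4.07 with shFLI1 at 48 h in the authors' deposited table and CDH10 one of 5.66.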

How the data were processed

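Total RNA of 28 libraries was measured. Per the submitters' processing notes, HISAT2 2.1.0, SAMtools 1.7, featureCounts 1.6.0, DESeq2 1.34.0 and FastQC 0.11.7 were used with GRCh38. The sources used here give neither the annotation release nor the strand setting. Values deposited by the authors are a signal for each gene in each library, namely reads divided by that library's size factor. Whole reads could be recovered (100% of values within 0.02). The authors' deposited tables give log2 fold changes, p-values and, in 1 table, a score (a test statistic). The table named for shFLI1 at 24 h followed the difference between the times in shScramble and was not used.

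limma-trend 3.58.1 (R 4.3.3) was run on log2-transformed values after adding 1, which understates changes of low genes, for genes with a mean of at least 10. The 4 groups of a time shared 1 fit, and times were compared in 1 fit of all 28 libraries. P values were two-sided and adjusted by the Benjamini-Hochberg method over all tested genes, with calls at 0.05. Errors of log2 differences are standard errors. Alternatives included edgeR 4.0.16 and DESeq2 1.42.0 on recovered reads. The fits were tested on simulated data.

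Replicate numbers come from the titles. Same-numbered libraries of shScramble, shCHD4#1 and shCHD4#2 deviated together (18 of 18 correlations above 0.1, 0.119 to 0.708). The highest was between the 2 CHD4 hairpins, and pairs of shScramble with a CHD4 hairpin reached 0.548. Pairs with shFLI1 did not deviate together (-0.15 to 0.103). The block thus bears on the CHD4 results. Same-numbered shScramble and CHD4 libraries are also of the same kind, and pairs of unlike number were not compared. Whether the number or the kind sets these correlations was not tested. Some even read numbers outnumbered the odd ones before them (10524 values of 6 reads and 10022 of 5), and reads may be mates of 1 fragment.

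Members and lists were chosen with earlier results of these data known. Members were named by a rule: CDH1 to CDH5, CDH11 and CDH13 always. For comparisons with shScramble it took the largest called changes whose groups did not overlap and whose higher group reached a set mean. For the other comparisons the same rule took the called members with the smallest p. CDH6, CDH7, CDH15, CDH16, CDH18, CDH20, CDH26, PCDH1, PCDH8, PCDH9, PCDH11X, PCDHB3, PCDHB4, PCDHB13, PCDHB17P and the stretches were named after their values were seen where that rule did not name them. Gene positions are from GENCODE release 29. Levels of the Y-linked member are not reported.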

Additional observations from a re-analysis of the deposited data

Results flagged for a closer look

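In 4 control groups 1 library lay far from the other 4 by Dixon's test, which flags about 1 in 20 groups by chance. The test was run on 31 named members at both 24 and 48 h, so a number of flags near this can arise by chance. These were PCDH18 in shScramble replicate 2, with 547 normalised counts at 24 h and 770 at 48 h, PCDH7 in 24 h shScramble replicate 1 with 2377, and PCDH19 in 48 h shScramble replicate 1 with 108.

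For 9 members the difference from shScramble changed between the times in the fit of all libraries. With shFLI1 the change was 2.88 for PCDH10, 2.01 for PCDH18, 2.13 for PCDH19, 2.12 for CDH2, 1.73 for CDH15, 1.35 for PCDH8, 0.93 for CDH24 and -1.82 for CDH10. With shCHD4#2 it was -1.69 for CDH5. Of all tested genes 16.7% changed between the times with shFLI1 and 0.989% with shCHD4#2. The calls of CDH10, CDH15, PCDH8, CDH2 and CDH5 were each lost when certain single libraries were left out. That of CDH2 was also lost without the library that stood apart.

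Members too low to be tested showed signal in shFLI1 libraries. CDH17 reached 119 normalised counts in the 48 h library that stood apart, against 0 in both other libraries of its group. PCDH8P1, a pseudogene, reached 22.3 at 24 h and 21.3 at 48 h, against up to 8.10 and 5.15 in the shScramble libraries of these times.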

How the results depend on the processing

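No called result of a named member changed direction under any alternative run. Other results were not checked for direction. Stretches were added as an alternative after seeing the data. They were fitted by limma with all libraries and with single libraries left out. They were not fitted with the replicate block, library kind, edgeR or DESeq2. The counts of members (higher or lower against shScramble unless said otherwise) moved by over 1.5 times as follows. With stretches in place of alpha and gamma genes, 22 were higher with shFLI1 at 24 h and 41 at 48 h, and 48 were called against the mean of the CHD4 hairpins at 48 h, with fewer features to test. With the replicate block, shCHD4#1 gave 20 lower at 24 h and 20 at 48 h, shCHD4#2 29 and 54, and the shFLI1 time effect 42 called. The block also ended the calls of CDH10 and PCDH10 with shCHD4#1 at 48 h (adjusted p = 0.0816 and 0.114) and, with shFLI1, of PCDHB7 at 24 and 48 h (0.0692 and 0.0698), PCDHB16 at 24 h (0.113), PCDH17 at 48 h (0.13) and CDH7 at 48 h (0.06). With library kind as a term, shCHD4#1 gave 22 and 19 lower, shCHD4#2 2 higher and 33 lower at 24 h and 54 lower at 48 h, the hairpin difference 28 at 24 h and the shFLI1 time effect 21. In the second kind of library alone, where each CHD4 group has 1 library assumed to vary like the other groups, shCHD4#1 gave 0 higher and 2 lower at 24 h and 1 and 3 at 48 h, shCHD4#2 0 higher at 24 h, the hairpin difference 1 at 24 h, the shFLI1 time effect 19 and that of shCHD4#2 0. Quantile normalisation gave 15 lower with shCHD4#1 and 17 with shCHD4#2 at 24 h, and 2 higher and 12 lower with shCHD4#1 at 48 h. Fitting only the groups compared gave, at 24 h, 1 higher and 2 lower with shCHD4#1, 0 higher with shCHD4#2 and 10 between the hairpins. DESeq2 gave 2 higher with shCHD4#2 at 24 h and 13 for the shFLI1 time effect. A pseudocount of 10 and no filter each gave 0 for the shCHD4#2 time effect. Shares of all genes are given above for some of these counts. Where none is given, here or for the left-out libraries below, a count cannot be set against a background. Alpha and gamma genes that share reads also add to the counts. The causes were not tested. Median centring moved the median of all genes from near 0 to -0.11 with shFLI1 at 48 h.

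Leaving out 1 library gave, for shFLI1, 31 to 43 higher and 3 to 5 lower at 24 h and 54 to 64 and 3 to 4 at 48 h. For shCHD4#1 it gave 1 to 2 and 1 to 5 at 24 h and 1 to 7 and 2 to 6 at 48 h, for shCHD4#2 0 to 1 and 7 to 12 at 24 h and 0 to 4 and 16 to 38 at 48 h. Between the hairpins 8 to 17 and 28 to 44 were called, for shFLI1 against their mean 50 to 55 and 63 to 76, and for the time effects 5 to 13 (shFLI1), 0 to 1 (shCHD4#2), 0 to 0 (shCHD4#1) and 0 to 0 (shScramble). Of 168 named results with a test, 4 lost their call with edgeR, 2 with DESeq2 (which kept 163 and gave no adjusted p for 3 results on CDH2 at 48 h), 8 with the block and 38 in the second kind of library alone. Of 1410 fits of these results without 1 library, 158 lost the call.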
